A study of Rattus norvegicus with 4 samples.

Results

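The HOX genes of the rat kidney line NRK-52E are described here, taken as every row of the deposited gene table whose symbol begins with Hox, a cluster letter from a to d and a paralogue number. This rule gave 33 of 17768 rows, with 9 in cluster A, 9 in B, 8 in C and 7 in D. They carry 32 symbols, because Hoxa11 stands on 2 rows. RNA was sequenced in 4 libraries of this established epithelial line, which the labels call proximal tubular, 2 with lv_nc in the title and 2 with lv_Mettl3. For the stable line, the labels' protocols describe murine Mettl3 cDNA in a puromycin-selectable lentiviral vector, with cells selected at 0.5 mg/ml and kept at 0.25 mg/ml puromycin, and all 4 samples carry the treatment label untreated. Left unstated are the meaning of nc, whether a line is 1 clone, and whether the replicates were cultured separately. The p-values therefore rest on a spread between libraries that may be technical alone.

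HOX genes encode homeodomain transcription factors that give cells along the body axis their positional identity. In mammals they lie in clusters A to D on different chromosomes, and members of the same number in different clusters are paralogues. Within a cluster the low-numbered genes are switched on early and towards the head, and the high-numbered genes later and towards the tail. In the embryo, paralogues of group 11 are needed for the metanephric kidney to form, and HOX proteins bind DNA together with TALE homeodomain cofactors of the PBX and MEIS families. Polycomb complexes keep silent HOX genes off, trithorax complexes keep active ones on, and retinoic acid is an inducer of the low-numbered genes.

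Cluster D shows the contrast between neighbouring genes most plainly, so the sequences upstream of 4 of its genes are given first. Hoxd13 and Hoxd9 were among the highest HOX genes of the line, while Hoxd12 and Hoxd10, which lie between them, had 2 and 3 reads in all 4 libraries together. The lines below give the 250 bases before each RefSeq gene start on the plus strand of GRCr8, 5′ to 3′, with CpG dinucleotides in capitals. They come from chr3:79977827-79978076 for Hoxd13, chr3:79984856-79985105 for Hoxd12, chr3:80001697-80001946 for Hoxd10 and chr3:80007756-80008005 for Hoxd9.
Hoxd13: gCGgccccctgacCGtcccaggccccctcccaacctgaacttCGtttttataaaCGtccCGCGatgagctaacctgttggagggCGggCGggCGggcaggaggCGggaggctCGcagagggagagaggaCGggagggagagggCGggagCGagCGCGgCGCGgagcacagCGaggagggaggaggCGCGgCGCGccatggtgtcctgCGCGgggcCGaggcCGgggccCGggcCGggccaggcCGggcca
Hoxd12: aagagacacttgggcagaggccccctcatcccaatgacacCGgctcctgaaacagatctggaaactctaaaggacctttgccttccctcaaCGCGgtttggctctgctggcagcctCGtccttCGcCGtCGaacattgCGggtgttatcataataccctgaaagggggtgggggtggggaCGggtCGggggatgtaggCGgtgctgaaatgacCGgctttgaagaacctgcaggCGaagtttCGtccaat
Hoxd10: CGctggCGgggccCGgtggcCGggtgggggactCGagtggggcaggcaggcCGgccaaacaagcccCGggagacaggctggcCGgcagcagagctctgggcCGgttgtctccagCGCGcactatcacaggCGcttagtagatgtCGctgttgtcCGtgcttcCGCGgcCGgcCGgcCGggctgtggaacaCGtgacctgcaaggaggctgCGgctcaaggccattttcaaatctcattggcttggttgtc
Hoxd9: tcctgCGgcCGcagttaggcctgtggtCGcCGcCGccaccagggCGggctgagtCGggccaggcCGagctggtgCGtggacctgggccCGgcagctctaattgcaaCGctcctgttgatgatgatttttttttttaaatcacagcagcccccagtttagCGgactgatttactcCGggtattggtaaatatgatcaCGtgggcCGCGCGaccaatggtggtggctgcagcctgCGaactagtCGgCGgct
The 250 bases held 30 CpG dinucleotides at Hoxd13, 14 at Hoxd12, 21 at Hoxd10 and 20 at Hoxd9. Only the Hoxd13 sequence, of these 4, held the letters TATAAA, the core of the TATA box.

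RefSeq windows of 300 bases, from 250 before to 50 after the gene start, were matched by symbol for 15 of the 32 HOX symbols. The matched genes were of clusters A and D, besides Hoxc4. No gene of cluster B, which held 48.6% of the summed HOX level, was matched. Among the matched windows, those of the line's silent and active genes overlapped in composition. Among detected genes, the ratio of observed to expected CpG was 0.914 for Hoxd13, 0.932 for Hoxd9, 1.07 for Hoxd8, 0.637 for Hoxa11 and 0.230 for Hoxc4. Among genes below 1 TPM it was 0.699 for Hoxd12, 0.777 for Hoxd10, 1.14 for Hoxa4 and 0.928 for Hoxa6. Its median over all 33469 RefSeq windows was 0.392. Searched on both strands, CCAAT was found in 10 of the 15 windows and in 37.5% of all windows, GGGCGG in 9 and 33.1%, and TATAAA in 2 and 14.2%. TGATTNAT, a pattern bound by HOX and PBX proteins together, was found in 1 window, that of Hoxa2, and in 3.18% of all windows. No match of these patterns overlapped a match of another in the 15 windows. These matches describe letters only.

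Per library, 15068898 to 16622255 gene reads were recovered from the deposited values, and Mettl3 itself did not separate the groups, with normalized counts of 719 and 767 in lv_nc and 757 and 700 in lv_Mettl3 (limma log2 difference -0.03, SE 0.11, adjusted p = 0.931). The groups are therefore called by their labels, and whether reads of the murine cDNA reached the rat row was not analysed here. Most markers of the proximal tubule were low: of 14, 9 were in the table and 2 had a mean of at least 1 TPM (read share scaled by gene length), the peptidase gene Ggt1 and the glucose transporter gene Slc5a2. The list sum was 207 to 224 TPM in lv_nc and 278 to 315 TPM in lv_Mettl3, nearly all from Ggt1, which DESeq2 called higher (adjusted p = 0.0345, limma adjusted p = 0.378). The endocytic receptor gene Lrp2 had 3 reads in all and the epithelial cadherin gene Cdh1 15. The keratin gene Krt8 (1805 to 2205 TPM) and the vimentin gene Vim (3948 to 5379 TPM) were high. Of 8 fibroblast and smooth muscle markers tested, limma called 0 and DESeq2 called 4 lower (Col3a1, Col1a1, Col1a2 and Acta2), beside 1.07% of all genes. The sum over all 8 was 4564 to 5659 TPM in lv_nc and 5615 to 5683 TPM in lv_Mettl3, most of it from Vim. In that list Col1a1 had normalized counts of 3914 and 8706 in lv_nc and 1033 and 876 in lv_Mettl3. Of the 3 endothelial markers found 0 had a mean of 1 TPM, of 4 leukocyte markers 2 did (Cd14 and Cd68), and of 3 podocyte markers 1 did (Synpo). The part of these markers in the HOX values was not tested.

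HOX levels are compared between genes as TPM, which divides reads by the deposited gene length. In bulk libraries fewer cells that express a gene and less RNA per cell cannot be told apart. The 33 rows summed to a mean of 583 TPM per library. Cluster B held 48.6% of this sum, cluster D 33.9%, cluster C 15.7% and cluster A 1.79%. By the threshold of a mean of 1 TPM over the 4 libraries, 24 of the 33 rows were detected: 9 of 9 in cluster B, 7 of 8 in C, 5 of 7 in D and 3 of 9 in A. The share of detected rows, 72.7%, was near the 75.0% found over the whole table. Every deposited row had at least 1 read, so HOX genes without a row, such as Hoxd11, enter neither these counts nor this share. The members just inside the threshold were Hoxa9 at 1.29 TPM and Hoxc8 at 1.31 TPM, and the member just outside was Hoxc11 at 0.982 TPM. TPM depends on the deposited length, which was a multiple of 3 for 15 of the 33 rows, among them Hoxb6. A gene model of coding sequence only has such a length, but other models can have it too. The count therefore does not show which rows hold coding sequence only.

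**Figure D1:**
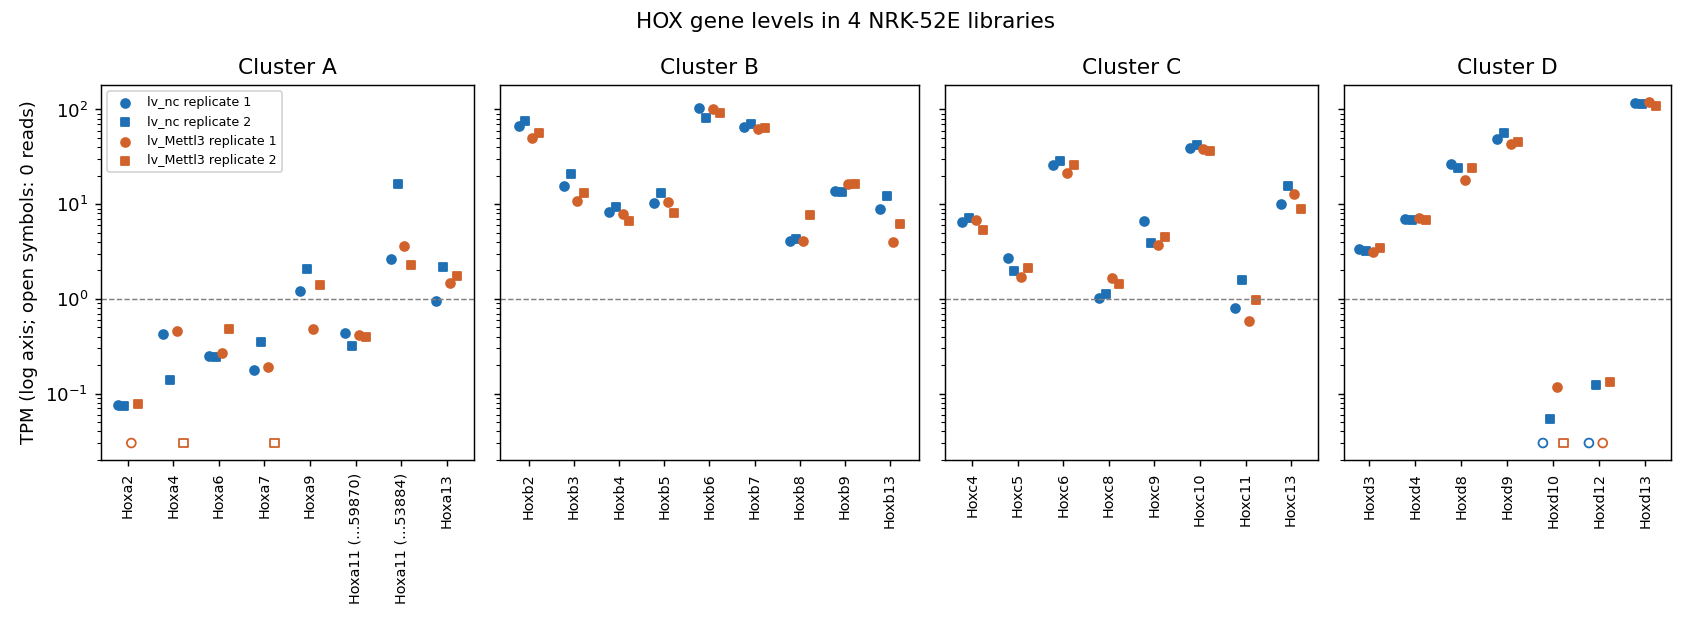
Length-scaled level (TPM, log axis) of 32 HOX rows in each of the 4 libraries, by cluster and in paralogue order, with filled symbols for values above 0, open symbols for 0 reads and a dashed line at 1 TPM. All 9 rows of cluster B lie above the line, 5 of the 8 rows of cluster A shown have a mean below it, and Hoxd13 is far above Hoxd12 and Hoxd10.

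The highest HOX gene was Hoxd13, a factor of the most posterior group known for limb and urogenital patterning (ENSRNOG00000001588, chromosome 3, 61590376 to 61593692 in the authors' table, which names no build). It stood at 118 and 115 TPM in lv_nc replicates 1 and 2 and at 120 and 109 TPM in lv_Mettl3 replicates 1 and 2, rank 1666 of 17768 rows. Its 4 values spread over a narrow range and the groups overlapped. Hoxb6, which is expressed in the trunk mesoderm, followed at 105 and 80.9 TPM in lv_nc and 101 and 91.6 TPM in lv_Mettl3. The 4 Hoxd13 values lay above the 4 Hoxb6 values, and these lay above those of Hoxb7. Hoxb7, known for its activity in the ureteric bud and its derivatives, had 64.6 and 70.7 TPM in lv_nc against 61.6 and 64.0 TPM in lv_Mettl3. Hoxb2, a hindbrain gene (67.3, 75.3, 50.02 and 56.6 TPM in the same order of libraries), overlapped Hoxb7 and also Hoxd9 (48.5, 56.6, 43.4 and 45.2 TPM). All Hoxb7 values lay above all Hoxd9 values. Compared within each library, Hoxb2 was above Hoxd9 in all 4. Against Hoxb7 it was higher in both lv_nc libraries and lower in both lv_Mettl3 libraries, so the order of Hoxb2 and Hoxb7 is not fixed.

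Hoxc10 came next, with 36.6 to 41.8 TPM over the 4 libraries, apart from the gene above it and the gene below it in the order of levels. Hoxc6 had 21.4 to 28.6 TPM and Hoxd8 18.1 to 26.4 TPM, ranges that overlap. Hoxb3 (10.9 to 20.8 TPM), Hoxb9 (13.5 to 16.3 TPM), Hoxc13 (8.90 to 15.6 TPM) and Hoxb5 (8.05 to 13.2 TPM) formed a run of overlapping ranges above a mean of 10 TPM, the level that 12 rows reached. A further 12 rows had means between 1 and 10 TPM. Hoxb4, Hoxb13, Hoxd4, Hoxc4, Hoxb8, Hoxc9, Hoxd3, Hoxc5 and Hoxc8 of this group ran from 8.05 down to 1.31 TPM, and the remaining 3 were rows of cluster A.

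Levels along clusters B, C and D did not run in one direction. In cluster B (chromosome 10), Hoxb2 was high at 62.3 TPM, Hoxb3 to Hoxb5 were at 15.1, 8.05 and 10.5 TPM, Hoxb6 and Hoxb7 were high again, and Hoxb8 was at 5.03 TPM. Per base of deposited length, Hoxb6 had 8.95 times the reads of Hoxb5 (95% interval 8.13 to 9.88, exact) and Hoxb7 had 13.01 times those of Hoxb8 (11.1 to 15.4, exact). The spans of these pairs lie 2552 and 1870 bases apart. In cluster C (chromosome 7), Hoxc10 had 39.3 times the reads per base of its neighbour Hoxc11 (27.3 to 58.8, exact). These intervals cover counting error only.

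Cluster D (chromosome 3) held the sharpest steps among these neighbouring pairs. Hoxd13 had 9154 reads over the 4 libraries and Hoxd12, whose span begins 3690 bases further on, had 2, a ratio per base of 1777 (95% interval 492 to 14675, exact). Hoxd10 had 3 reads and Hoxd9, 2825 bases away, had 2793, a ratio per base of 1154 (395 to 5601, exact). In single libraries Hoxd12 had 0, 1, 0 and 1 reads and Hoxd10 had 0, 1, 2 and 0 reads. A count of 0 allows up to 3 reads, which for Hoxd12 is 0.382 TPM in lv_nc replicate 1 and 0.410 TPM in lv_Mettl3 replicate 1. Hoxd12 and Hoxd10, whose upstream sequences stand above, were thus near 0 in both groups. Hoxd8, Hoxd4 and Hoxd3, on the low-numbered side, stepped down from 23.2 to 6.94 and 3.28 TPM.

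Cluster A was low in these libraries, with an uncertainty that the other clusters do not share to the same degree. Hoxa2, Hoxa4, Hoxa6 and Hoxa7 had 3, 7, 34 and 4 reads over the 4 libraries, and means of 0.0566 to 0.311 TPM. Hoxa9 had 34 reads and a mean of 1.29 TPM, and Hoxa13, on an unplaced sequence, had 59 reads and a mean of 1.59 TPM. The same stretch of chromosome 4 holds the additional Hoxa11 row and 8 rows with other names that are described as Hox-A proteins of 5 kinds, some repeating a gene that also has a HOX symbol row and some not: LOC108348320 (Hox-A3), LOC103689922 and AABR07060585.1 (Hox-A5), NEWGENE_1587253 (Hox-A7), LOC100911668 and LOC100912608 (Hox-A10), and AABR07073021.3 and an unnamed transcript (Hox-A13). These 8 rows, found after their values were seen, held 375 reads against 365 on the 9 rows that bear HOX A symbols. With both, cluster A summed to 14.1 TPM, 2.40% of the HOX sum. The span of Hoxa6, 82173293 to 82263302, covers 6 other rows. Reads that fit several copies could be split or discarded by the counting, whose settings the labels and headers do not state, so the values of cluster A are uncertain.

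**Figure D2:**
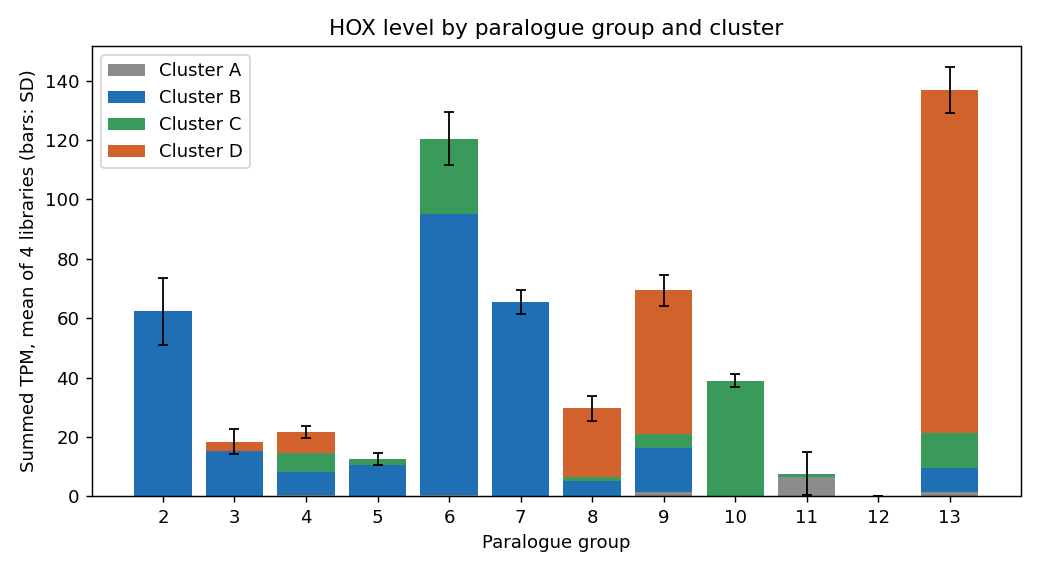
Summed TPM of the HOX rows in paralogue groups 2 to 13 (mean of 4 libraries, black bars SD), split by cluster. Group 13 is the highest at 137 TPM, mostly Hoxd13, group 6 follows at 120 TPM, mostly Hoxb6, and group 12 is near 0.

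Summed over clusters, group 13 had 137 ± 7.69 TPM (SD, n = 4 libraries), of which Hoxd13 gave 84.4%. Group 6 had 120 ± 8.89 TPM and Hoxb6 gave 78.6% of it. Group 9, the one with detected members in all 4 clusters besides group 13, had 69.3 ± 5.12 TPM, led by Hoxd9 at 69.9%. A single member made up nearly all of groups 2, 7 and 10: Hoxb2 with 99.9%, Hoxb7 with 99.7% and Hoxc10 with 99.9%. All these sums leave out the Hox-A rows under other names. Among those, LOC100911668 (Hox-A10) had a mean of 1.29 TPM, above the detection threshold. Group 11, whose paralogues act in early kidney formation, had 7.62 ± 7.15 TPM, and a single row of Hoxa11 gave 82.0% of that. The sum was 3.85 and 18.3 TPM in lv_nc and 4.63 and 3.67 TPM in lv_Mettl3, so lv_nc replicate 2 sets the mean and the share, and without it the mean was 4.05 ± 0.511 TPM (SD, n = 3). This sum covers Hoxa11 and Hoxc11, and no deposited row bears the symbol Hoxd11.

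No HOX gene passed the test of lv_Mettl3 against lv_nc. The question was whether the libraries labelled for Mettl3, an RNA methyltransferase that adds methyl groups to adenosines, differ from the others at these genes. Of the 33 rows, 30 had a normalized count of at least 1 in at least 2 libraries and were tested, and Hoxa2, Hoxd10 and Hoxd12 did not pass that filter. Limma called 0 of the 30, beside 0.0183% of all 16391 genes tested, and the smallest adjusted p was 0.452. EdgeR, run on recovered reads, also called 0 (background 0.0305%, smallest adjusted p = 0.46). DESeq2 called 0 of the 23 rows to which it gave an adjusted p (background 2.52%, smallest adjusted p = 0.33). At an unadjusted p under 0.05 limma, DESeq2 and edgeR each had 2 HOX rows, all lower in lv_Mettl3, beside 10.5%, 7.44% and 10.1% of all genes in either direction and 4.93%, 3.75% and 4.83% in the lower direction. In the authors' deposited table the smallest adjusted p of a HOX row was 0.33, and 0 of the 167 genes of the authors' deposited short list are HOX genes.

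**Figure D3:**
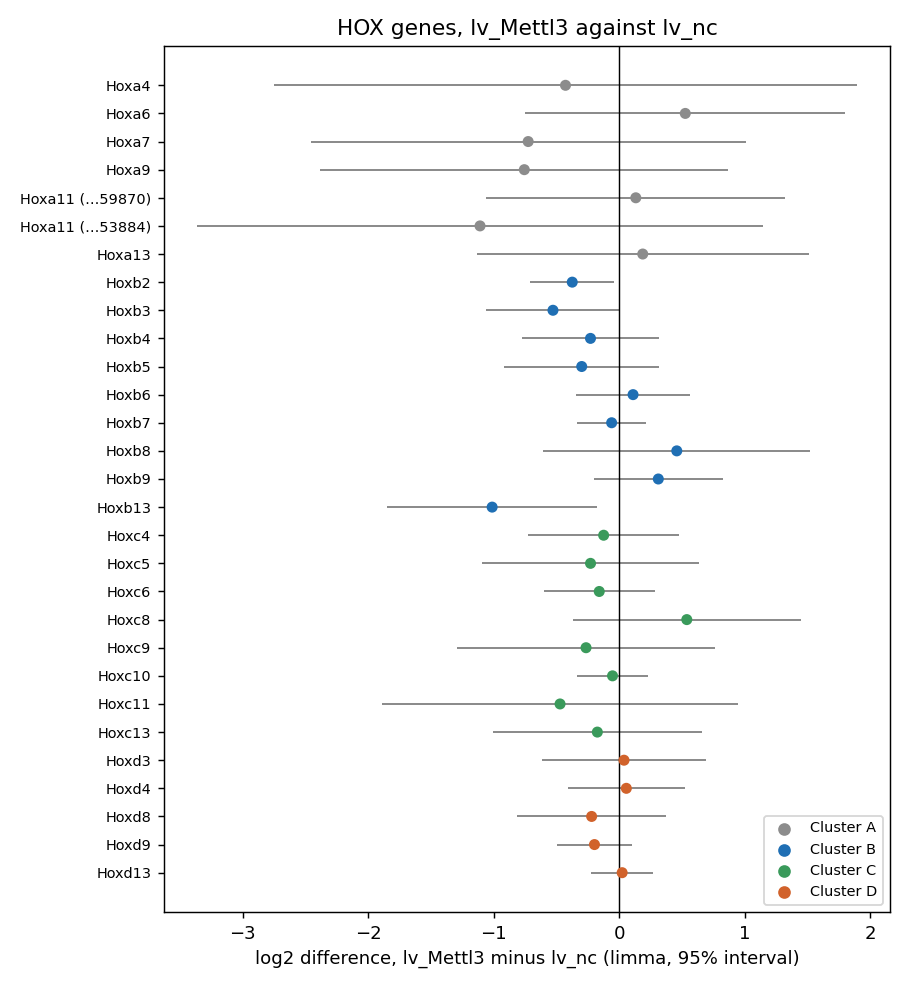
Difference between lv_Mettl3 and lv_nc for 29 of the 30 HOX rows tested, on the log2(normalized count + 1) scale (points, coloured by cluster), with 95% intervals from limma. The intervals of 2 rows, Hoxb13 and Hoxb2, lie wholly below 0, neither row passes adjustment over all genes, and those of the low cluster A rows are wide.

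The log2 differences of the 30 rows had a median of -0.17, beside a median of 0.01 over all genes tested, and 19 of 30 were below 0, beside 49.3% of all genes. Both lv_Mettl3 libraries lay below both lv_nc libraries for 5 rows (16.7%), beside 21.5% of all genes, and above them for 3 rows (10.0%), beside 23.5%. The 5 rows were Hoxb2, Hoxb3, Hoxb4, Hoxb13 and Hoxd9, and the 3 rows were Hoxa6, Hoxb9 and Hoxc8. The shares of separated rows were thus no higher than over the table.

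The smallest unadjusted p among HOX rows belonged to Hoxb13, a posterior factor known from prostate and hindgut (ENSRNOG00000007491, chromosome 10, 84031955 to 84034228). Its normalized counts were 95.7 and 126 in lv_nc and 43.5 and 67.2 in lv_Mettl3. Both lv_Mettl3 values were below both lv_nc values, with means of 111 ± 21.7 and 55.3 ± 16.8 (SD, n = 2). The limma log2 difference was -1.01 (SE 0.33, 95% interval -1.85 to -0.17, adjusted p = 0.452), so the difference is larger than the spread between replicates but did not pass adjustment. Its log2 difference lay between -1.32 and -0.70 with 1 library left out.

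Hoxb2 and Hoxb3, neighbours at the low-numbered end of cluster B, were lower in both lv_Mettl3 libraries as well. Hoxb2 had normalized counts of 573 and 619 in lv_nc and 429 and 491 in lv_Mettl3, a limma log2 difference of -0.37 (SE 0.13, 95% interval -0.71 to -0.04, adjusted p = 0.464). Hoxb3, which acts with its paralogues in the hindbrain and the pharyngeal region, had 262 and 342 in lv_nc against 188 and 229 in lv_Mettl3 (log2 difference -0.53, SE 0.21, 95% interval -1.06 to 0.01, limma adjusted p = 0.485). Hoxd9, the fourth by unadjusted p, had 696 and 784 in lv_nc against 628 and 661 in lv_Mettl3 (log2 difference -0.20, 95% interval -0.50 to 0.11, limma adjusted p = 0.567). For all 4 genes the higher lv_nc library was replicate 2 and the higher lv_Mettl3 library was replicate 2.

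**Figure D4:**
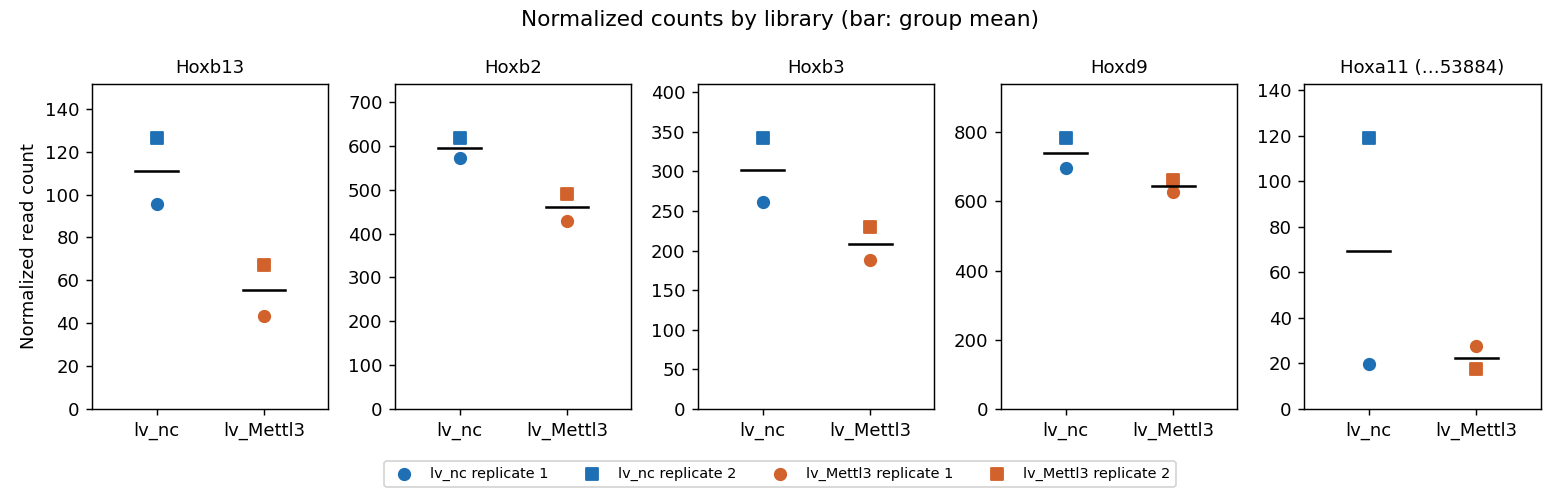
Normalized counts of 5 HOX rows in each library, with the group mean as a bar and each vertical axis starting at 0. Hoxb13, Hoxb2, Hoxb3 and Hoxd9 have both lv_Mettl3 values below both lv_nc values, while for the Hoxa11 row ENSRNOG00000053884 lv_nc replicate 2, at 119, stands apart from the other 3 libraries, at 17.6 to 27.6.

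The most abundant HOX genes could be compared most closely, since their counts were high. Hoxd13 had normalized counts of 2335 and 2188 in lv_nc and 2396 and 2205 in lv_Mettl3, and its log2 difference of 0.02, which was -0.02 with library size scaling, had a 95% interval of -0.22 to 0.27 (limma). Hoxb7 had a log2 difference of -0.06 (-0.34 to 0.22), Hoxc10 one of -0.05 (-0.34 to 0.23), Hoxb6 one of 0.11 (-0.35 to 0.57) and Hoxc6 one of -0.16 (-0.60 to 0.29). For Hoxd8 it was -0.22 (-0.81 to 0.37) and for Hoxb9, whose lv_Mettl3 values of 123 and 124 lay above the lv_nc values of 102 and 96.9, it was 0.31 (-0.20 to 0.83). Among the 10 most abundant HOX genes, then, changes of 2-fold or more lay outside the limma intervals of 9, the exception being Hoxb3, whose interval reached -1.06. Their limma adjusted p ran from 0.464 to 0.935.

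The Hoxa11 row ENSRNOG00000053884 (chromosome 4, 82298152 to 82300503) was decided by 1 library. It had normalized counts of 19.5 and 119 in lv_nc and 27.6 and 17.6 in lv_Mettl3. The log2 difference was -1.11 (SE 0.88, 95% interval -3.37 to 1.15, limma adjusted p = 0.65), and the lv_nc libraries differed from each other by more than this. In DESeq2 it was -1.62 (adjusted p = 0.391), -2.40 without lv_nc replicate 1 (adjusted p = 0.0112) and 0.20 without lv_nc replicate 2. The additional Hoxa11 row, ENSRNOG00000059870 (82211366 to 82215022), had 7.82, 5.54, 7.42 and 7.23, so it did not share the high value. On the opposite strand beside the first row, AABR07060585.2 had 19.5 and 3.69 in lv_nc against 1.06 and 6.20 in lv_Mettl3, highest in the other lv_nc library. This row was discussed after its values were seen.

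Sums over clusters carry no test. Cluster B had summed normalized counts of 2547 and 2634 in lv_nc and 2258 and 2355 in lv_Mettl3, so both lv_Mettl3 sums were lower, by 0.17 on the log2 scale. Cluster C had 1125 and 1183 against 1086 and 1070, so both lv_Mettl3 sums were lower here as well. Cluster D had 3424 and 3331 against 3366 and 3250, where the groups overlapped, while its TPM sums of 204 and 205 against 192 and 189 did not overlap. Cluster A had 55.7 and 169 against 64.7 and 66.1, where the Hoxa11 row above sets the high value.

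TALE cofactors ranged from Pbx4 at a mean of 0.888 TPM to Meis2 at 84.8 TPM. Of the 9 genes on the list 8 were in the table and tested. Limma, edgeR and DESeq2 each called 0, and limma had 2 at an unadjusted p under 0.05 (all genes 10.5%). The median limma log2 difference was -0.24, beside 0.01 over all genes. Medians of the other lists, cell type markers aside, ran from -0.57 (related homeobox genes, 3 tested) to 0.08 (boundary and cohesin genes). Meis2 had 87.6 and 98.8 TPM in lv_nc against 75.7 and 77.1 TPM in lv_Mettl3, and Pbx2 had 66.3 and 64.1 TPM against 53.3 and 55.7 TPM. Both genes were lower in both lv_Mettl3 libraries, as were 21.5% of all genes tested, with limma adjusted p of 0.478 and 0.501. Pknox1, also looked at after its values were seen, was higher in both lv_Mettl3 libraries. For Pbx3 and Pbx4 the groups overlapped. Meis1, named after its values were seen, had the smallest p of the list: its normalized counts were 1047 and 1219 against 781 and 774 (log2 difference -0.54, SE 0.12, limma adjusted p = 0.385, DESeq2 adjusted p = 0.0856).

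The list of retinoic acid genes held 3 calls, all from DESeq2. Of 18 genes 12 were tested, limma and edgeR called 0, limma had 5 at an unadjusted p under 0.05 (all genes 10.5%), and DESeq2 called 1 higher and 2 lower (background 1.45% and 1.07%). Cyp26b1, an enzyme that breaks down retinoic acid, rose in DESeq2 from normalized counts of 131 and 91.4 to 333 and 355 (log2 difference 1.63, SE 0.29, adjusted p = 7.19e-06). Aldh1a2, which makes retinoic acid from retinal, fell in DESeq2 from 1563 and 2073 to 1168 and 1118 (log2 difference -0.67, SE 0.19, DESeq2 adjusted p = 0.0189). Dhrs3, which reduces retinal, fell in DESeq2 from 86.0 and 299 to 21.2 and 37.2 (log2 difference -2.72, SE 0.55, DESeq2 adjusted p = 0.000143). The limma adjusted p was 0.274, 0.399 and 0.419 in that order. With 1 library left out the DESeq2 log2 difference was 1.39 to 1.91 for Cyp26b1, -0.86 to -0.46 for Aldh1a2 and -3.36 to -1.56 for Dhrs3. Such fits leave 1 library in a group, and none of the 3 calls held in each of them. Any link of these genes to the HOX values was not tested.

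Of the chromatin regulators in the table, 27 of 28 Polycomb genes, 15 of 15 trithorax and elongation genes and 9 of 9 boundary and cohesin genes had a mean of at least 1 TPM. Of 29 Polycomb genes 27 were tested, limma and edgeR called 0, limma had 3 at an unadjusted p under 0.05 (all genes 10.5%), and DESeq2 called 1, which was higher (all genes 1.45%). That gene was Ezh1, a methyltransferase subunit of the second Polycomb complex, which rose in DESeq2 from normalized counts of 897 and 859 to 1737 and 1610 (log2 difference 0.93, SE 0.17, adjusted p = 4.82e-06; limma adjusted p = 0.165). With 1 library left out its DESeq2 log2 difference was 0.87 to 0.98. Such fits leave 1 library in a group, and the call did not hold in each of them. Of 17 trithorax and elongation genes 15 were tested and limma, edgeR and DESeq2 called 0, with limma giving 1 at an unadjusted p under 0.05. Ash2l and Dpy30, subunits of the histone H3 methyltransferase complexes, had 145 to 157 TPM and 131 to 142 TPM over the 4 libraries. Of 9 boundary and cohesin genes these tests called 0, again with 1 at an unadjusted limma p under 0.05. The cohesin subunit gene Rad21 had 352 and 383 TPM in lv_nc against 301 and 285 TPM in lv_Mettl3 (limma adjusted p = 0.452), and Maz, a zinc finger gene, had 193 to 223 TPM.

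Evx2, the homeobox gene next to Hoxd13, was near 0, with 3 reads in all 4 libraries. Of 11 homeobox genes beside or related to the clusters, 5 were in the table and 3 were tested. Limma, edgeR and DESeq2 called 0, and limma had 1 at an unadjusted p under 0.05. Mnx1 was the one above 1 TPM, with 1.52 and 6.75 TPM in lv_nc and 2.29 and 1.89 TPM in lv_Mettl3. The hairpin rows of the microRNA genes Mir10a, Mir10b and Mir615, which lie within the clusters, had 8, 9 and 3 reads, and such libraries do not measure mature microRNAs. Between Hoxd9 and Hoxd8, on the opposite strand, an unnamed transcript had 35.2 and 37.8 normalized counts in lv_nc and 26.5 and 32.0 in lv_Mettl3. Its mean was 2.91 TPM, above the detection threshold. Beside Hoxc11, also on the opposite strand, the noncoding row AABR07058934.2 had 16 reads in all. At its length of 134 bases that was a mean of 3.70 TPM. Of 7 partners and targets of the group 11 paralogues in the early kidney, 2 were in the table, with limma, edgeR and DESeq2 calling 0 and 0 at an unadjusted limma p under 0.05. Wt1 had 5.24 and 2.89 TPM in lv_nc against 4.48 and 3.93 TPM in lv_Mettl3, and Osr1 had 0.291 to 0.933 TPM.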

How the data were processed

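Gene-level RNA sequencing values of 4 NRK-52E libraries were analysed, grouped by their titles. Per the submitters' processing notes, CASAVA 1.4 and HISAT2 were used; the counter, strand setting, genome build and differential test are not given in those sources. The deposited library columns are a signal, gene read counts divided by 1 size factor per library: within 0.001 reads, 100% of values were whole multiples of the library's smallest positive value, and whole reads were recovered from these steps. Columns of log2 fold change and p-value from the authors' own comparison are also deposited, per the file headers. TPM was computed from recovered reads and the deposited gene lengths.

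The test was limma 3.58.1 (trend) on log2(normalized count + 1), for genes reaching 1 in 2 or more libraries, and p-values were adjusted over all of them (Benjamini-Hochberg, 0.05). DESeq2 1.42.0 and edgeR 4.0.16 on recovered reads were alternatives; DESeq2 leaves some adjusted p-values undefined, and these were left out. The log2(value + 1) scale understates changes of low genes. Versions were R 4.3.3 and Python 3.11.15, with figures drawn in matplotlib 3.10.9. Scripts were tested on simulated counts.

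The HOX members and the gene lists were chosen with earlier results of these data known. Named genes were the 10 most abundant HOX genes, the 4 with the smallest limma p, called HOX genes, and from each list up to 4 genes called by limma or DESeq2, or the 2 most abundant where none was called; others are marked as chosen after their values were seen. RefSeq upstream sequences were on GRCr8, which is not stated to be the authors' build, and no coordinates were converted. Of the HOX rows, 1 counts in the totals and sums but is not reported here on its own.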

Additional observations from a re-analysis of the deposited data

How the results depend on the processing

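The count of HOX genes called, 0 by limma, was 0 in every alternative run except DESeq2 without lv_nc replicate 1, where it was 1 (range 0 to 1 over the fits without 1 library), the Hoxa11 row ENSRNOG00000053884. The count over all genes, 3 by limma, was 0 with a pseudocount of 0.1, 5 with at least 1 CPM in all 4 libraries, 5 with edgeR, 24 with robust empirical Bayes and 318 with DESeq2. Without 1 library it was 0 in each limma fit and with DESeq2 it was 1547 and 217 with lv_nc replicate 1 or 2 left out, and 56 and 61 with lv_Mettl3 replicate 1 or 2 left out. With the replicate block limma called 0 HOX genes and 3 of all genes. The labels tie same-numbered libraries by their number alone and do not say whether they were handled together. Their within-group differences had a correlation of 0.325 over 10051 genes, and whether they share a batch was not tested. The block changed no HOX call.

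Of 172 refits of 12 HOX rows, 164 kept direction and side of the threshold, 7 changed sign and 1, Hoxa11 (ENSRNOG00000053884) in DESeq2 without lv_nc replicate 1, passed. Hoxd13 was -0.0156 with library size scaling, and -0.0355 to 0.0842 without 1 library. Without 1 library Hoxb6 ranged from -0.1005 to 0.323, Hoxd8 from -0.4389 to 0.001 and the Hoxa11 row from -2.3824 to 0.1651 in limma and -2.4034 to 0.2027 in DESeq2. Library size scaling moved the median of abundant genes by -0.04 and the log2 ratios of the cluster sums to -0.2078 (B), -0.1388 (C) and -0.0697 (D). With TPM sums they were -0.1628 (C) and -0.1015 (D). The cluster A ratio was -1.369 to 0.2321 without 1 library, positive without lv_nc replicate 2. The cause of these moves was not tested. DESeq2 without 1 library, the cluster A sum with the other Hox-A rows, and the group 11 sum without lv_nc replicate 2 were chosen after seeing the data. The number of detected HOX rows was 25 at 0.5 TPM, 18 at 5 TPM and 22 with at least 1 TPM in every library. Depth limits cluster A, where Hoxa2, Hoxa4 and Hoxa7 had 3 to 7 reads in all.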
